A study of Danio rerio with 24 samples.

Results

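The genes gsc, noto, shha, foxa2, foxa3, frzb and ctslb are transcribed in the dorsal organizer of the early zebrafish embryo or in the axial mesoderm that leaves it. These 7 symbols were looked up by name in a table of TPM values (transcript abundance scaled to the total of each library) covering 32521 gene rows. They were found on 10 rows, because 4 rows carried the name ctslb. The table held 24 poly(A) RNA libraries of whole embryos taken 6 hours after injection, in 12 groups of 2 libraries. All injected embryos received RfxCas13d (here Cas13d), a CRISPR nuclease that cuts RNA where a guide RNA directs it, at the 1-cell stage.

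The first set of 6 groups used transgenic embryos with maternally provided RFP. Its embryos were left uninjected, or received Cas13d mRNA (200 to 250 pg per embryo) alone, with nanog guides, with rfp guides, with a gfp reporter mRNA (40 pg) that carries the nanos 3′ untranslated region, or with that reporter and dnd guides; each guide dose was 500 to 600 pg. The labels of the second set name no transgene. Its embryos received Cas13d mRNA alone, Cas13d mRNA with szrd1 guides, Cas13d protein (3 ng per embryo) alone, Cas13d protein with szrd1 guides, Cas13d protein with the reporter, or Cas13d protein with the reporter and dnd1 guides, at the doses of the first set. The unit of the protein dose is unclear in the label of replicate 2 of the dnd1 guides. The second set had no uninjected embryos. The numbers of embryos per library, their strain and whether replicates came from separate clutches are not given in the sources used here. The p-values therefore rest only on the spread between the 2 libraries within groups, estimated over the 6 groups of a set together.

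The organizer forms at the dorsal margin of the blastula under maternal beta-catenin and Nodal signals, and its cells move inward during gastrulation to become the prechordal plate and the notochord. Prechordal plate cells go on to form the hatching gland and instruct the forebrain. Notochord cells pattern the overlying neural tube and the flanking muscle, in large part through Hedgehog ligands. Among the genes described here, gsc encodes a homeodomain repressor that marks the organizer and prechordal plate, and noto (floating head) a homeodomain factor needed for the notochord. The forkhead factors foxa2 and foxa3 act in axial mesoderm and endoderm, and foxa2 also in the floor plate. Shha is a Hedgehog ligand of the notochord and floor plate. Frzb is a secreted antagonist of Wnt ligands, and ctslb encodes a cathepsin L-type protease that marks the anterior prechordal plate and hatching gland.

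Each target was lowest in the libraries that received its guides, within the set or sets where those guides were given. The nanog transcript measured 33.5 and 44.5 TPM with nanog guides and 324 and 253 TPM in the Cas13d mRNA controls. Replicates correlated at Pearson r of 0.987 to 0.994 over genes, and 13927 to 15757 genes per library reached 1 TPM. The table holds no counts, so the sequencing depth is unknown. Within the second set, 4 libraries stood apart from the other 8: those with Cas13d protein alone and with Cas13d protein and szrd1 guides had positive scores on a first principal component that held 62.1% of the variance, and the other 8 had negative scores. The libraries labelled as Cas13d protein with reporter had 21.3 and 20.6 TPM of nanos3, whose 3′ untranslated region the reporter carries. That is near the 16.6 and 17.2 TPM with Cas13d protein alone and far from the 1432 and 1646 TPM of the first set's reporter libraries, so these libraries are called "labelled" below. The dnd1-guide libraries of the second set held 18.5 and 27.1 TPM of the RFP row, where the other libraries of that set held 0.18 TPM or less.

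At 6 hours, gsc, noto and foxa3 were abundant in every group, foxa2 and frzb were intermediate, and shha and ctslb were at or near 0 in most groups. In uninjected embryos gsc measured 93.6 and 111 TPM, noto 100.2 and 117 TPM and foxa3 89.7 and 80.2 TPM. On the same per-length scale foxa2 measured 9.80 and 10.1 TPM, frzb 7.94 and 7.81 TPM and shha 0.34 and 0.34 TPM. The summed level of the 4 ctslb rows was 1.15 and 0.48 TPM. Across all 24 libraries the highest value was 1.96 times the lowest for noto, 2.52 times for gsc and 2.84 times for foxa3. That ratio was 11.6 for frzb, 14.4 for foxa2 and 74.4 for shha, whose lowest value was only 0.09 TPM. These are bulk samples, so fewer cells of a type and less RNA per cell cannot be told apart. All these genes except ctslb were above 0 in every library, and the ctslb sum was at 0 in 1 library.

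**Figure D1:**
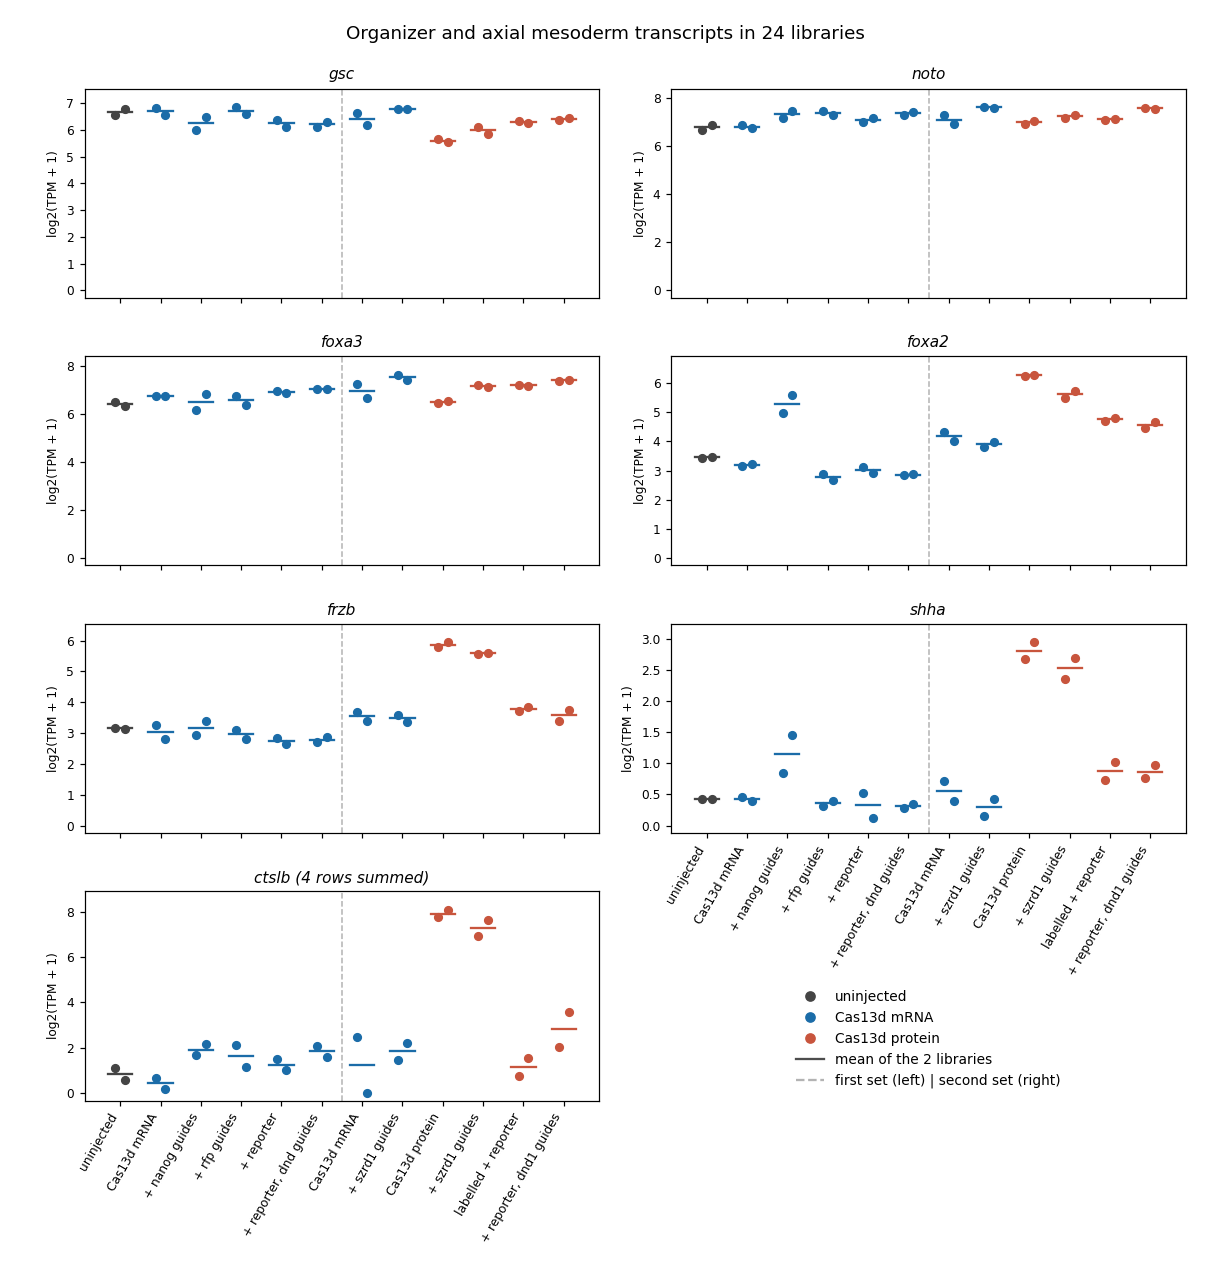
Level of each gene as log2(TPM + 1) in every library, with groups along the horizontal axis (the first set left of the dashed line, the second set right of it); points are libraries and bars the mean of the 2. The levels of gsc, noto and foxa3 vary little, foxa2 is high with nanog guides and in 4 Cas13d protein libraries, and frzb, shha and ctslb are high in those 4 protein libraries.

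With guides against nanog, a maternal homeodomain factor of zygotic genome activation, foxa2 rose, and none of the other 4 rows that could be tested was called. The foxa2 transcript measured 30.7 and 47.2 TPM with nanog guides and 7.89 and 8.31 TPM with Cas13d mRNA alone. It lay between 5.38 and 10.1 TPM in the 10 libraries of the first set without nanog guides, so the groups did not overlap. The mean was 4.81 times the control mean, and the log2 fold change of TPM + 1 was 2.103 (SE 0.22, limma adjusted p = 6.68e-05). Against the rfp guides, which also bring guide injection, foxa2 was 2.51 higher on the log2 scale (SE 0.22, limma adjusted p = 9.96e-06). The rfp guides cannot be taken as a neutral control, as 5.99% of genes were called with them against Cas13d mRNA. That count, 913 genes, depended on the settings and was 221 with no filter on low values. The nanog transcript measured 598 and 715 TPM with rfp guides and 324 and 253 TPM with Cas13d mRNA alone. High nanog was not particular to the rfp guides. It measured 592 and 623 TPM with the reporter and no guides, and 1003 and 988 TPM with reporter and dnd guides. A gene is called when its Benjamini-Hochberg adjusted p, over all genes tested in that set, is under 0.05 and its log2 fold change is at least 1 in size. By that rule 1 of 5 tested rows was called, against 4.07% of the 15253 genes tested (1.95% called higher). Against the rfp guides it was again 1 of 5, with 3.84% of all genes called and 2.06% called higher. The share of calls that were higher depends on the scaling: it was 47.8% against Cas13d mRNA and 53.7% against the rfp guides, and 73.9% and 65.9% when TPM was rescaled without genes over 10000 TPM. Against Cas13d mRNA it was 79.0% without nanog-guide replicate 1 and 21.0% without replicate 2, while foxa2 stayed called without any single library.

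The rows of shha and ctslb had a mean under 1 TPM in the first set and were left out of that fit. With nanog guides shha measured 0.79 and 1.73 TPM, above the 0.09 to 0.44 TPM of the other 10 libraries. In a fit with no filter on low values its log2 fold change against Cas13d mRNA was 0.72 (SE 0.19), with an unadjusted p of 0.0044 and a limma adjusted p of 0.0907, so it was not called. Its paralogue shhb, looked at after its values were seen, measured 1.21 and 2.72 TPM with nanog guides, 0.31 and 0.25 TPM with Cas13d mRNA and 0.29 TPM or less in the other 8 first-set libraries. Both Hedgehog ligands therefore had their highest first-set values in the same 2 libraries as foxa2, at no more than 2.72 TPM.

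The other axial genes moved little with nanog guides. Frzb measured 6.74 and 9.53 TPM against 8.51 and 6.05 TPM, with overlapping groups. Noto measured 142 and 177 TPM against 115 and 107 TPM (log2 fold change 0.51, limma adjusted p = 0.0706). Gsc measured 63.8 and 88.5 TPM against 114 and 94.1 TPM (log2 fold change −0.46, limma adjusted p = 0.166). Against Cas13d mRNA noto and gsc thus had opposite signs, and neither was called. Gsc was also lower than with rfp guides (115.9 and 94.9 TPM, log2 fold change −0.48, limma adjusted p = 0.188), without overlap. Noto overlapped the rfp-guide values, and neither gene was called there. The foxa3 values of 70.7 and 113 TPM with nanog guides straddled the control values of 109 and 106 TPM.

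Among the other organizer genes, only falls were called with nanog guides. Of the 22 tested rows of a 24-gene organizer list, 0 were higher and 5 were lower, where 2.12% of all genes were called lower, and the list's median log2 fold change was −0.09 against −0.05 over all genes. The largest falls were of cxcr4a (−2.12), a chemokine receptor, sebox (−2.02), a homeodomain gene, lhx1a (−1.39), a LIM homeodomain gene, and ndr1 (−1.30), a Nodal ligand. Of 9 notochord rows 1 was higher (foxa2) and 1 lower (plod1a, −1.24, a collagen-modifying enzyme), with a median of −0.26. No row of the 13 tested for the prechordal plate and hatching gland was called, and their median was 0.08. Of 11 Hedgehog rows only gas1a, a co-receptor, was called (−1.34), and of 6 secreted Wnt antagonist rows only notum1a, a Wnt deacylase (−1.31). Against the rfp guides, which share the nanog-guide libraries with this comparison, 4 of 22 organizer rows were lower (cxcr4a −2.11, ndr1 −1.66, admp −1.57 and lft2 −1.05) and 0 higher. Of all genes 1.78% were called lower there. Of the notochord rows foxa2 and tbxtb (1.94), a Brachyury paralogue, were higher and plod1a lower (−1.76), and of the Hedgehog rows gli2a was higher (1.104). Tbxtb was not called with nanog guides against Cas13d mRNA, and it was called lower with rfp guides against Cas13d mRNA.

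Some markers of other tissues were also called in the nanog-guide libraries, where 2.12% of all genes were called lower. Ventral and marginal markers were lower on 8 of 12 rows, and their summed level was 738 and 901 TPM, where the controls had 1902 and 1827.5 TPM. For the yolk syncytial layer it was 3 of 7 rows, with sums of 208 and 333 TPM against 464 and 408 TPM, and for endoderm, where foxa2 is also expressed, 1 of 5 tested rows (cxcr4a), with 199 and 275 TPM against 509 and 521 TPM. Later gastrula and neural plate markers were lower on 3 of 4 tested rows, with 196 and 286 TPM against 703 and 729 TPM. None of 9 enveloping layer rows (6582 and 8346 TPM against 9366 and 9356 TPM) and none of 6 germ cell rows (261 and 368 TPM against 290 and 282 TPM) was called. Oocyte transcripts were higher on 4 and lower on 2 of 13 rows, and the lower ones were nanog itself and pou5f3; the sums were 2668.5 and 3567 TPM against 4215 and 3941.5 TPM. No marker row of these lists was at 0 in both nanog-guide libraries. The part of these tissues in the foxa2 value was not tested.

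The remaining injections of the first set called none of the 5 tested rows. Cas13d mRNA against uninjected embryos gave 0 calls in limma, with 0 rows at an unadjusted p under 0.05, where 0.00656% of all genes were called. The rfp guides gave 0 calls against Cas13d mRNA, with 1 row under the unadjusted threshold and 5.99% of genes called. That row was noto, at 177 and 153 TPM against 115 and 107 TPM (log2 fold change 0.56, limma adjusted p = 0.0380, under the fold minimum). The reporter gave 0 calls and 1 row at an unadjusted p under 0.05, where 0.839% of genes were called: gsc, at 82.6 and 69.1 TPM against 114 and 94.1 TPM (log2 fold change −0.45, limma adjusted p = 0.257). The dnd guides against the reporter libraries gave 0 calls and 0 rows at that threshold, where 0.0262% of genes were called. The noto values with rfp guides, whose target is the transgene, thus covered nearly the same range as those with nanog guides. Around them, 2 of 22 organizer rows were lower with rfp guides than with Cas13d mRNA (sebox −1.16 and lhx1a −1.12), 1 of 9 notochord rows (tbxtb −1.45), 1 of 13 prechordal plate and hatching gland rows (six3b −1.03) and 0 of 11 Hedgehog rows, and 0 were higher. Cas13d mRNA, the reporter and the dnd guides had 0 calls in limma in these 4 lists; the 3 comparisons share libraries.

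**Figure D2:**
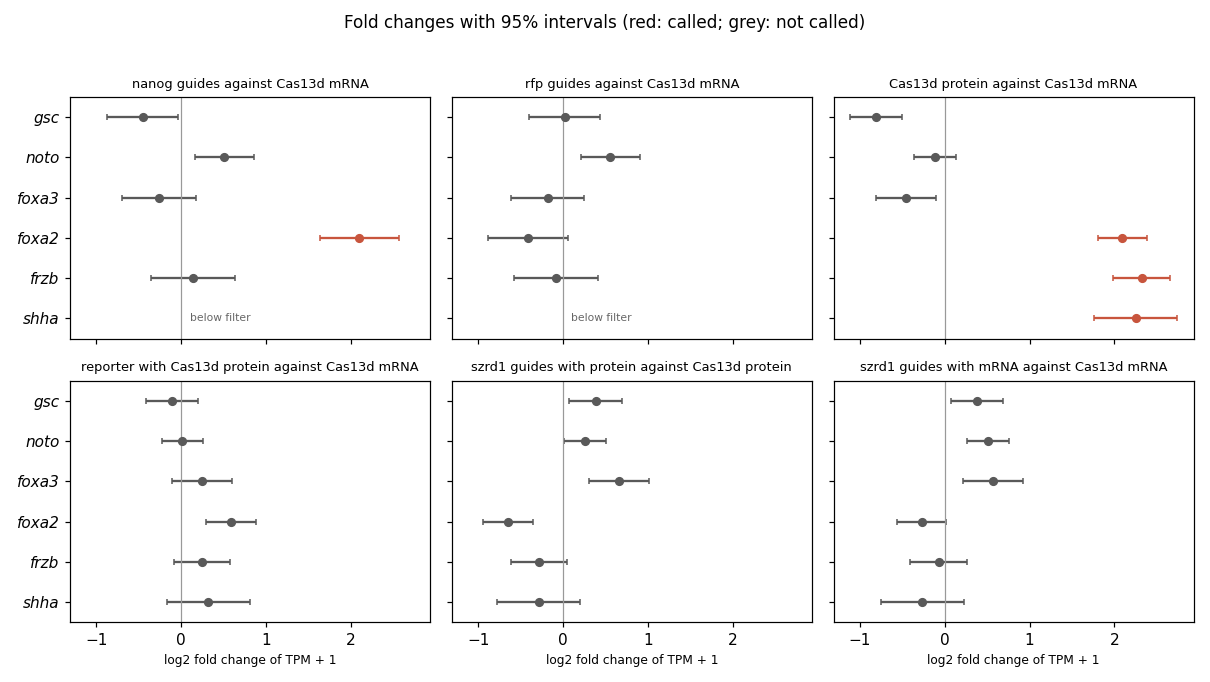
Log2 fold change of TPM + 1 (horizontal axis) with its 95% interval for 6 genes in 6 comparisons; red marks called genes and grey the others, and shha was below the filter in the first set. With nanog guides foxa2 stands at 2.103 and with Cas13d protein foxa2, frzb and shha stand between 2.096 and 2.32, while gsc, noto and foxa3 stay within 1 of 0 in all 6 comparisons.

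In embryos injected with Cas13d protein alone, foxa2, frzb, shha and the 4 ctslb rows were higher than in those with Cas13d mRNA, and gsc, noto and foxa3 were not called. Foxa2 measured 74.3 and 77.7 TPM with the protein and 19.03 and 15.2 TPM with the mRNA, a mean 4.44 times as high (log2 fold change 2.096, SE 0.13, limma adjusted p = 1.43e-06). Frzb measured 54.4 and 60.8 TPM against 11.9 and 9.61 TPM, 5.35 times as high (log2 fold change 2.32, SE 0.15, limma adjusted p = 1.72e-06). Shha measured 5.37 and 6.70 TPM against 0.64 and 0.32 TPM (log2 fold change 2.25, SE 0.22, limma adjusted p = 2.26e-05). In each of the 3 genes the lowest protein value exceeded every value of the 8 libraries that did not stand apart. In all, 7 of the 10 rows were called, all higher. Of the 14716 genes tested, 21.9% were called and 11.1% were called higher. Shha and the ctslb rows other than ENSDARG00000087651 reached the mean of 1 TPM through the 4 libraries that stood apart. Their being tested at all depended on those libraries.

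The early organizer genes did not rise with them. Gsc measured 49.7 and 46.0 TPM with Cas13d protein and 99.0 and 72.2 TPM with Cas13d mRNA (log2 fold change −0.81, SE 0.14, limma adjusted p = 7.46e-04). This passed the adjusted threshold but not the fold minimum, and without replicate 2 of the Cas13d mRNA group, the lower control, the value was −1.04 and was called. Foxa3 measured 87.7 and 92.4 TPM against 152 and 100.5 TPM (log2 fold change −0.45, limma adjusted p = 0.0326, under the fold minimum). Noto measured 121 and 130 TPM against 155 and 118 TPM, with overlapping groups. Within the forkhead family the paralogues therefore separated: foxa2 rose while foxa, another member, fell (log2 fold change −1.39) and foxa3 was not called.

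The largest contrast between groups was in ctslb. Row ENSDARG00000087651 measured 133 and 179 TPM with Cas13d protein and 68.1 and 127 TPM with Cas13d protein and szrd1 guides. Its highest value among the remaining 8 second-set libraries was 6.93 TPM. Row ENSDARG00000095072 measured 48.3 and 54.8 TPM, then 29.6 and 39.5 TPM, and was listed at 0 in all 4 Cas13d mRNA libraries of that set. Row ENSDARG00000039173 measured 29.8 and 36.1 TPM, then 15.9 and 27.8 TPM, and 2.2 TPM or less elsewhere in the set. These 3 rows were called higher with Cas13d protein than with Cas13d mRNA, at limma adjusted p of 4.56e-05, 6.09e-08 and 3.60e-05. ENSDARG00000095072 and ENSDARG00000039173 averaged 0.309 and 0.606 TPM over the 8 other libraries of the set. They were thus tested only because of the libraries where they are high. Row ENSDARG00000074306, the only row that the reference gene table also names ctslb, was the lowest, at 4.43 and 1.22 TPM against 0.89 and 0 TPM. It averaged 0.259 TPM over the 8 other libraries, so it too was tested only because of the libraries where it is high. Its call (log2 fold change 1.34, SE 0.51, limma adjusted p = 0.0466) was lost without replicate 1 of the Cas13d protein group (0.69) and without replicate 2 of the Cas13d mRNA group (0.88). Leaving out single libraries moved the log2 fold change of ENSDARG00000087651 between 5.17 and 7.28, since its controls measured 3.31 and 0 TPM.

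In the reference, ctslb lies in a tandem array of cathepsin L-like genes, and ENSDARG00000095072 is named si:dkey-26g8.4, a separate gene of that array. ENSDARG00000087651 and ENSDARG00000039173 have no name there, so their place in the array was not established. Copies may share reads, so the split among rows is uncertain. The 4 rows named ctslb, 1 of them a separate gene in the reference, summed to 215 and 271 TPM with Cas13d protein. The sum was 119.7 and 197 TPM with szrd1 guides added, against 4.60 and 0 TPM with Cas13d mRNA. It is therefore a level of these 4 rows and not of ctslb alone. The rows kept similar shares of that sum in both protein groups: 64.1% and 61.5% for ENSDARG00000087651, 21.2% and 21.8% for ENSDARG00000095072, and 13.5% and 13.8% for ENSDARG00000039173. In the gene order of GRCz12tu, zgc:174153 and zgc:174855 lie in the same stretch of genes as ctslb, but at its far end and not next to it. They were looked at after their values were seen, so no test is given. The first, zgc:174153, measured 106 and 120.2 TPM with Cas13d protein and between 0.68 and 3.18 TPM in the 8 libraries that did not stand apart. The second, zgc:174855, measured 93.8 and 115 TPM with the protein and was listed at 0 in both Cas13d mRNA libraries. In the protein libraries with szrd1 guides they measured 64.9 and 108 TPM and 48.8 and 85.6 TPM. The other 6 rows of the stretch measured between 2.09 and 27.7 TPM with Cas13d protein. The genes next to ctslb are si:dkey-239j18.2 and si:dkey-239j18.3. Of the 6 rows si:dkey-239j18.3 was the lowest, at 3.19 and 2.09 TPM, and it was at 0 and 0.71 TPM with szrd1 guides added. Not all of the array was therefore high in the 4 libraries that stood apart. In the first set the ctslb sum stayed between 0.15 and 3.44 TPM. Summing the rows, an alternative chosen after seeing the data, gave a sum over the filter there. The sum was called higher with nanog guides (2.22 and 3.44 TPM against 0.58 and 0.15 TPM, log2 fold change 1.49, limma adjusted p = 0.0208). It was also called higher with rfp guides (3.37 and 1.22 TPM, log2 fold change 1.21, limma adjusted p = 0.0389).

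**Figure D3:**
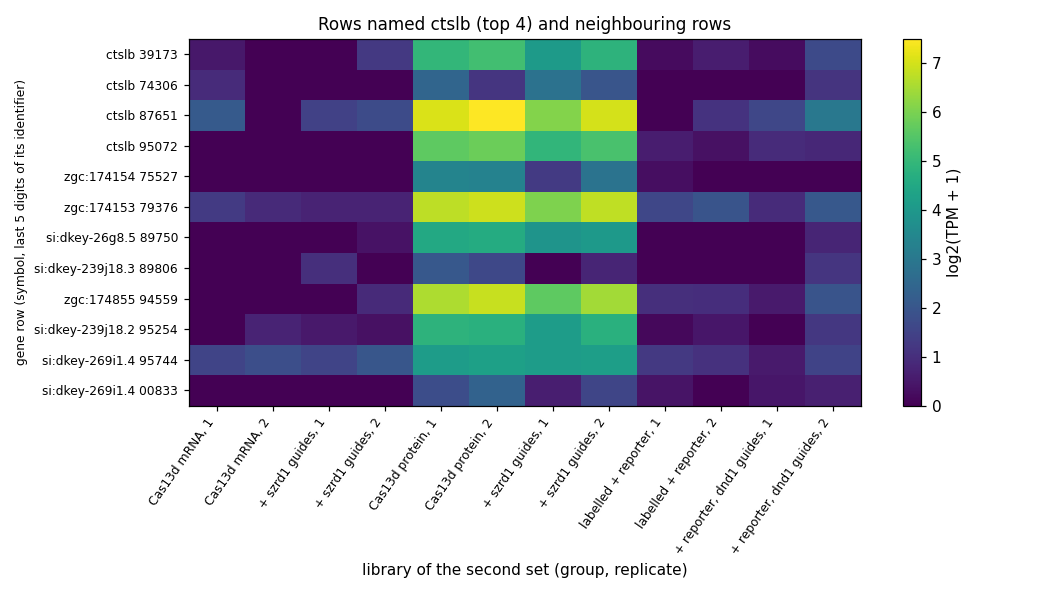
Heat map of log2(TPM + 1) in the 12 libraries of the second set for the 4 rows named ctslb and for other rows of the same stretch of genes. The columns of Cas13d protein alone and with szrd1 guides are bright in most rows and the other columns dark, with si:dkey-239j18.3 an exception; the brightest row, ctslb ENSDARG00000087651, reaches 179 TPM.

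With Cas13d protein, genes of the organizer list changed in both directions. Of its 24 rows 6 were higher and 6 lower than with Cas13d mRNA, and the median log2 fold change was 0.02 against 0.06 over all genes. The 4 largest changes were of otx2b, a head homeodomain gene (94.1 and 94.99 TPM against 2.82 and 3.07 TPM, log2 fold change 4.60), sebox (0.50 and 0.49 TPM against 33.8 and 26.7 TPM, −4.38), gdf3, the Vg1-type Nodal partner (18.8 and 15.4 TPM against 204 and 194 TPM, −3.47), and ndr1 (0.60 and 0.41 TPM against 11.9 and 10.2 TPM, −3.00). As background, gdf3 and the Nodal gene ndr1 are supplied maternally or act from the blastula on.

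The lists of tissues that come from the organizer hold rows that passed the filter through the libraries where they are high. Such rows could only rise. They include shha, shhb, twist2 and the ctslb rows other than ENSDARG00000087651. The counts and medians of these lists are given as descriptions. Of 17 rows for the prechordal plate and hatching gland, 10 were higher and 0 lower, with a median of 1.34, and 4 of the 10 carry the symbol ctslb. The list's summed level was nonetheless lower, at 3831 and 3839 TPM against 4861.5 and 4163 TPM. The cathepsin L family, which shares ctsla and ctslb with this list, summed to 3117 and 3127 TPM against 4234 and 3529 TPM. The list's sum is therefore no measure of its other genes. Beside the 4 ctslb rows and frzb the 10 higher rows included otx2b and prdm1a, which encodes the Blimp1 repressor of the hatching gland (42.9 and 48.8 TPM against 3.84 and 2.61 TPM, log2 fold change 3.48). Of 13 notochord rows 6 were higher and 2 lower, with a median of 0.98 and sums of 962 and 965 TPM against 1334 and 1141 TPM. The largest were twist2, a helix-loop-helix gene (28.6 and 33.8 TPM against 0.15 and 0.14 TPM, 4.81), plod1a (45.0 and 48.4 TPM against 2.34 and 2.84 TPM, 3.73), shhb (5.5 and 6.55 TPM against 0.09 and 0.08 TPM, 2.69) and shha.

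Other Hedgehog pathway genes rose in the same libraries as shha. The list had a median of 0.92 and sums of 254.5 and 262 TPM against 181 and 171 TPM. Where 11.1% of all genes were called higher and 10.8% lower, 0 of its 15 tested rows were lower and 7 were higher. Besides shha and shhb these were hhip, a ligand-binding inhibitor (8.15 and 9.14 TPM against 0.67 and 0.66 TPM, log2 fold change 2.53), and gli2b, a transcription factor of the pathway (6.64 and 8.29 TPM against 0.81 and 0.90 TPM, 2.184), and 3 others between 1.403 and 1.82: gli1, the receptor gene ptch1 and gli2a. Hhip, gli1 and ptch1 are known targets as well as components of the pathway. Rows under 1 TPM with Cas13d mRNA, as those of shha, shhb, hhip and gli2b were, could not be called lower. The count and median of the Hedgehog list are therefore given as descriptions. Of 6 tested rows of secreted Wnt antagonists 2 were higher, frzb and sfrp1a (1.63), and 1 lower, notum1a (−1.18), and the list summed to 370 and 402 TPM against 202 and 161 TPM. The 7 higher Hedgehog rows stayed low in the Cas13d protein libraries, with gli2a the highest at 15.1 and 16.5 TPM. Of 8 tested rows of the cathepsin L family the 4 ctslb rows were the ones called.

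**Figure D4:**
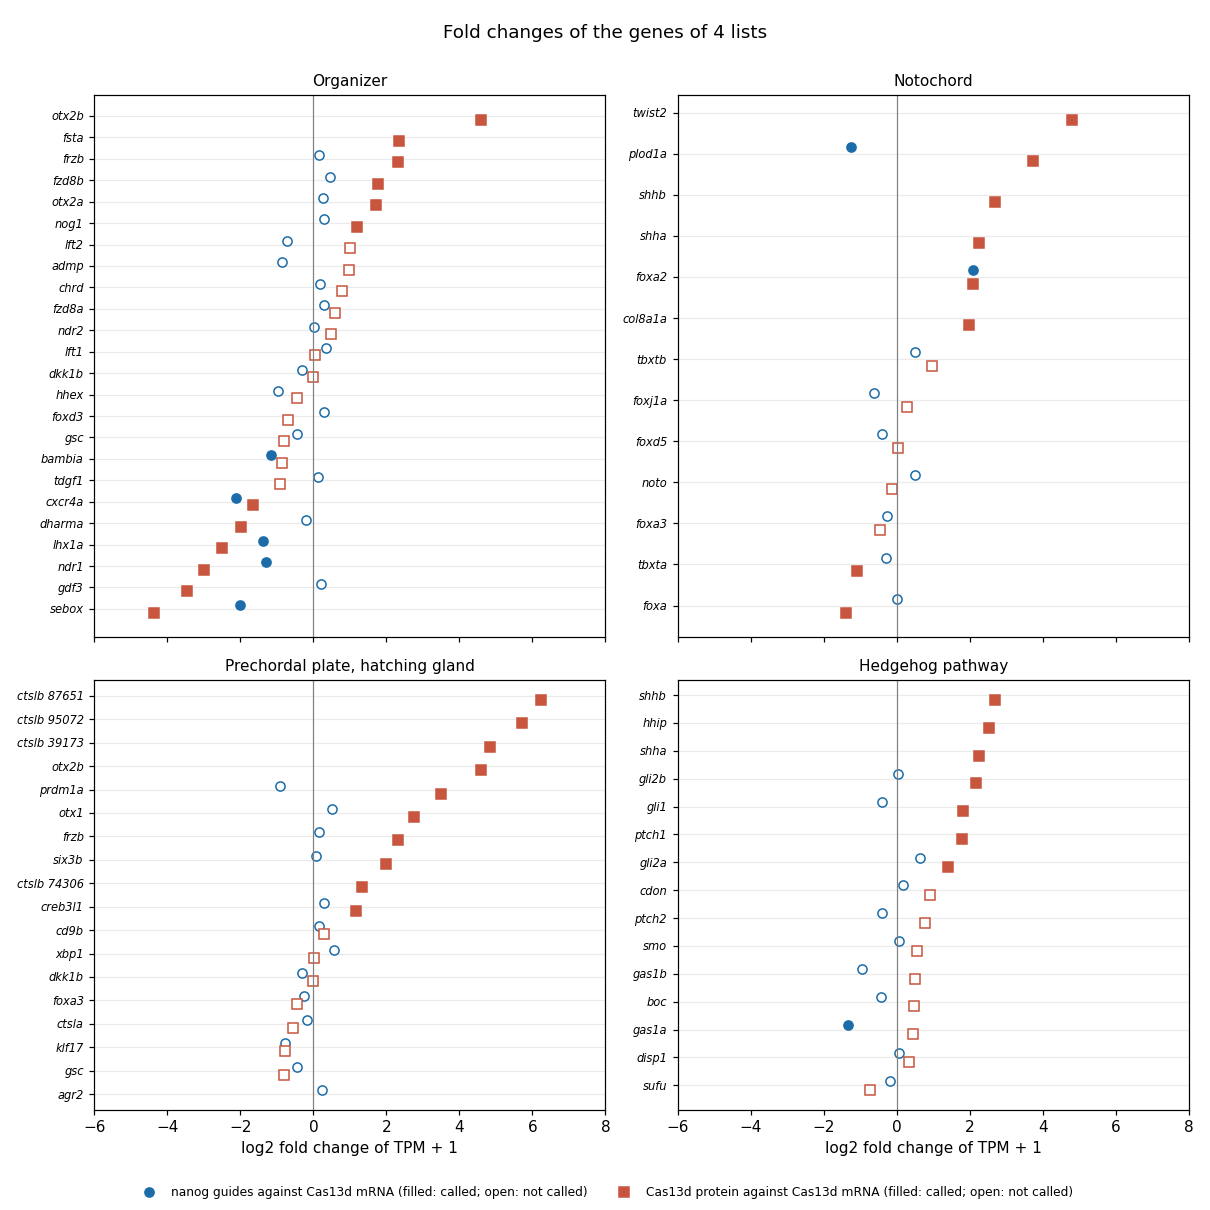
Log2 fold change of TPM + 1 (horizontal axis) for every tested row of 4 gene lists; circles compare nanog guides and squares Cas13d protein, each with the Cas13d mRNA libraries of its own set, and filled symbols are called. With Cas13d protein 10 of 17 prechordal plate and hatching gland rows and 7 of 15 Hedgehog rows are filled on the right, where 11.1% of all genes were called higher. These counts are descriptions: they include the 4 ctslb rows, and shha, shhb and some ctslb rows passed the filter only through libraries where they are high. With nanog guides foxa2 is the one filled circle on the right. The value of ctslb ENSDARG00000095072 depends on the pseudocount, as its controls are listed at 0.

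Markers of other tissues and of stage moved in the same Cas13d protein libraries. Across all genes, 11.1% were called higher and 10.8% lower with Cas13d protein than with Cas13d mRNA. Later gastrula and neural plate markers were higher on 6 and lower on 1 of 9 tested rows, with a median of 1.74. Among them hoxb1b measured 78.3 and 94.1 TPM against 0.11 and 0.10 TPM, and rx3 11.7 and 16.2 TPM against 0.13 and 0 TPM. Rows as near 0 in the controls as hoxb1b and rx3 could not be called lower, so this count and median are descriptions. The summed level of these markers was 912 and 900 TPM against 882 and 856 TPM, because sox3, which fell, made up most of it. Oocyte transcripts were lower on 10 and higher on 0 of 12 rows, with sums of 1181 and 1185 TPM against 2906 and 2697 TPM. The nanog transcript itself measured 8.93 and 7.25 TPM against 154 and 153 TPM, though no nanog guides were given; it was 49.9 and 62.8 TPM with szrd1 guides and protein and 52.8 and 58.1 TPM in the labelled reporter libraries, whose foxa2 values differ. Ventral and marginal markers were higher on 6 and lower on 2 of 13 rows (2603 and 2578 TPM against 1912 and 1873 TPM), yolk syncytial layer markers higher on 1 and lower on 2 of 7 (1008 and 1072 TPM against 505 and 381 TPM) and enveloping layer markers higher on 2 of 9 (13213 and 13364 TPM against 9524 and 9645 TPM). Endoderm markers were higher on 2 and lower on 2 of 6 rows (187 and 177 TPM against 427 and 356 TPM). Germ cell markers were lower on 2 of 6 rows (91.1 and 96.1 TPM against 253 and 202 TPM). None of these marker rows was at 0 in both Cas13d protein libraries. The part of stage, of these tissues or of the nanog level in the axial values was not tested.

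With szrd1 guides added, the Cas13d protein libraries also had high values of foxa2, frzb, shha and ctslb, whereas the labelled reporter libraries had lower ones. In the labelled reporter libraries foxa2 measured 25.2 and 26.9 TPM, frzb 12.2 and 13.5 TPM, shha 0.66 and 1.03 TPM and the ctslb sum 0.68 and 1.94 TPM. Compared with Cas13d mRNA these libraries had 0 of 10 rows called in limma and 2 at an unadjusted p under 0.05, where 1.64% of genes were called. The clearer of the 2 was foxa2, whose groups did not overlap (log2 fold change 0.59, SE 0.13, limma adjusted p = 0.0208, under the fold minimum). Compared with Cas13d protein alone, whose libraries also served the comparison of protein with mRNA above, 7 of 10 rows were lower, where 17.6% of genes were called and 9.28% called lower. The log2 fold change was −1.51 for foxa2, −2.08 for frzb and −1.93 for shha, at limma adjusted p of 1.39e-05, 4.39e-06 and 7.57e-05. Shha, like the ctslb rows other than ENSDARG00000087651, passed the filter only through the 4 libraries that stood apart. Gsc and foxa3 were 0.70 and 0.69 higher on the log2 scale (limma adjusted p = 0.00205 and 0.00481, under the fold minimum). Between the labelled reporter libraries and Cas13d mRNA, therefore, no row was called, and the organizer, notochord, prechordal plate and hatching gland and Hedgehog lists had 0 calls in limma. The 4 libraries that stood apart still entered the filter and the spread of that fit. Shha and the ctslb rows other than ENSDARG00000087651 were under 1 TPM with Cas13d mRNA and could not be called lower.

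Guides against szrd1, a little-studied gene with a SUZ RNA-binding domain, called none of the rows with either form of Cas13d. With Cas13d protein there were 0 calls in limma among 10 rows and 5 at an unadjusted p under 0.05, where 2.93% of genes were called. Foxa2 measured 44.5 and 51.9 TPM against 74.3 and 77.7 TPM (log2 fold change −0.65, SE 0.13, limma adjusted p = 0.0118) and foxa3 146 and 140.0 TPM against 87.7 and 92.4 TPM (0.66, SE 0.16, limma adjusted p = 0.0248). Neither reached the fold minimum, and in neither did the groups overlap. The 3 others were gsc at 69.0 and 57.0 TPM (0.38), noto at 143 and 156 TPM (0.26) and ctslb ENSDARG00000095072 (−0.58), at limma adjusted p of 0.104, 0.168 and 0.0652. The group means of foxa2, gsc, frzb, shha and the ctslb sum lay between those of Cas13d protein alone and of the labelled reporter libraries, with shha overlapping Cas13d protein alone. The mean of noto lay above both, and ctslb row ENSDARG00000074306, at 6.13 and 2.95 TPM, was not between them either. Of the organizer list 4 rows were higher and 1 lower. The 4 higher ones were gdf3 (1.90), lhx1a (1.59), sebox (1.58) and ndr1 (1.48), and the lower one was otx2b (−1.31). Of the Hedgehog rows gli2b was lower (−1.29), and no notochord row was called. Oocyte markers were higher on 7 of 12 rows.

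With Cas13d mRNA, szrd1 guides gave 0 calls in limma among 9 rows and 3 at an unadjusted p under 0.05, where 0.924% of genes were called. Shha and ctslb rows ENSDARG00000039173 and ENSDARG00000074306 were tested only because of the 4 libraries that stood apart. Their means with Cas13d mRNA were 0.48, 0.2 and 0.445 TPM, so they could not be called lower. Noto measured 196.5 and 191 TPM against 155 and 118 TPM (log2 fold change 0.51, SE 0.11, limma adjusted p = 0.0301, under the fold minimum). Foxa3 measured 201 and 169.6 TPM against 152 and 100.5 TPM (0.57, limma adjusted p = 0.0732) and gsc 111 and 110.2 TPM against 99.0 and 72.2 TPM (0.38, limma adjusted p = 0.154). The 3 genes were therefore above both controls in both libraries. The difference of the szrd1 effect between protein and mRNA gave 0 calls in limma among 10 rows and 1 row at an unadjusted p under 0.05, where 1.04% of genes were called. That row was ctslb ENSDARG00000095072 (limma adjusted p = 0.269), listed at 0 in every mRNA library of the contrast.

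The dnd1 guides with Cas13d protein, set against the labelled reporter libraries, gave 0 calls in limma among 10 rows and 3 at an unadjusted p under 0.05, where 0.408% of genes were called. Shha and the ctslb rows averaged 0.845 TPM or less in the labelled reporter libraries, so they could not be called lower. All of them but ENSDARG00000087651 were tested only because of the 4 libraries that stood apart. These groups also differ in nanos3, at 121 and 160 TPM with dnd1 guides against 21.3 and 20.6 TPM. They differ in the RFP row too, at 18.5 and 27.1 TPM against 0 and 0.11 TPM. Guides, reporter signal and whatever gave the RFP signal therefore cannot be told apart. Noto measured 191 and 186 TPM against 135 and 139 TPM (log2 fold change 0.46, SE 0.11, limma adjusted p = 0.0880). The ctslb rows ENSDARG00000087651 (1.99 and 6.93 TPM against 0 and 1.14 TPM) and ENSDARG00000095072 (0.91 and 0.78 TPM against 0.51 and 0.27 TPM) had limma adjusted p of 0.330 and 0.380. Noto was called in none of the guide comparisons. Its mean was nonetheless 1.2 to 1.48 times that of the own control in each guide group of both sets. The limma adjusted p was under 0.05 with rfp guides (0.0380) and with szrd1 guides and mRNA (0.0301), where only the fold minimum was missed. The nanog and rfp guides share their control libraries.

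In the order of group means foxa2 was highest with Cas13d protein (76.0 TPM), then with Cas13d protein and szrd1 guides (48.2 TPM), then with nanog guides (38.9 TPM). The last 2 groups overlapped. All 6 frzb group means of the second set, 10.2 to 57.6 TPM, lay above those of the first set, and within the first set neighbouring groups overlapped. The labels name a transgene only for the first set, and no test was made between the sets. For gsc the group with Cas13d protein was lowest (47.8 TPM), followed by Cas13d protein with szrd1 guides (63.0 TPM). No other library of the 24 had less gsc than those of the Cas13d protein group.

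Across the 24 libraries, after the mean of each set was subtracted from log2(TPM + 1), shha followed foxa2 at Pearson r = 0.85, and at 0.893 over the 20 libraries without the 4 that stood apart. Those 20 still hold the nanog-guide libraries, where foxa2 and shha had their highest first-set values. Frzb and foxa2 correlated at 0.726 and 0.573, and frzb and shha at 0.952 and 0.633. Frzb followed ctslb ENSDARG00000095072 at 0.973, but at 0.509 without those 4. Among 10233 genes with a mean of at least 5 TPM, the 3 most like foxa2 were CR847906.1, dmd (dystrophin) and foxb1a, a forkhead gene, at r of 0.963, 0.953 and 0.951 (0.937, 0.945 and 0.921 over the 20 libraries). All 3 were also called higher with nanog guides than with Cas13d mRNA, and those libraries are among the 20. The genes most like shha were pkdcca, zgc:174153 and mdkb, a midkine growth factor gene, at 0.978, 0.977 and 0.971. Frzb was closest to txn and fn1a, a fibronectin gene, at 0.977 and 0.975, which fell to 0.696 and 0.627 over the 20 libraries. For gsc the closest was spata20 (0.919), for noto apool (0.93) and for foxa3 mapkapk2a (0.923). Of the ctslb rows ENSDARG00000095072 was closest to hoxb1b (0.983, and 0.633 over the 20 libraries). These libraries share groups, controls and injections, so the correlations are descriptions over 12 groups.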

How the data were processed

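The authors deposited 1 table of TPM per gene and library; TPM is relative to all transcripts of a library, so an abundant transcript lowers all others. Per the submitters' processing notes, bcl2fastq 2.18, STAR 2.6.1c, RSEM and danRer11 were used; the annotation and whether counting used strand are not given in the sources used here. Per the labels' protocols, libraries came from a stranded poly(A) kit and 75-base single reads. Here log2(TPM + 1) was fitted per set, 6 groups and 12 libraries together (6 residual degrees of freedom), with limma 3.58.1 (trended eBayes, two-sided, R 4.3.3) for genes with a mean of at least 1 TPM. Intervals are 95%. With no filter 27855 genes entered the first set's fit. Code was tested on simulated data. A fold change on log2(TPM + 1) understates changes of low genes. Fold changes of the 10 rows are given only where the unadjusted p was under 0.05 in that fit. Some ctslb rows under that threshold, and all other rows, are given as TPM, by adjusted p or as a count. List genes named are those called, at most the 4 with the largest change, except where stated. The members and lists were chosen with earlier results of these data known. Gene names came from the table, and the order of genes around ctslb from the RefSeq gene table of GRCz12tu. Alternatives were a pseudocount of 0.1, a mean of at least 5 TPM or no filter, 2 other scalings, only the groups compared, a replicate block, no fold minimum, single libraries left out and the ctslb rows summed.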

Additional observations from a re-analysis of the deposited data

How the results depend on the processing

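The count of rows called stayed within 1.5 times the reported count except as follows. Summing the ctslb rows, chosen after seeing the data, gave 2 with nanog guides and 1 with rfp guides, both against Cas13d mRNA, and 4 both for Cas13d protein against mRNA and for the labelled reporter libraries against Cas13d protein, since there were then fewer rows. Dropping the fold minimum gave 1 with rfp guides and 1 with szrd1 guides and mRNA (noto in both), 2 with szrd1 guides and protein (foxa2 and foxa3), and 1 in the labelled reporter libraries against Cas13d mRNA (foxa2). A pseudocount of 0.1 gave 1 in that last comparison, ctslb ENSDARG00000095072, whose controls are at 0. In the 2 comparisons with 7 rows called, the other alternatives gave 5 to 9, with 9 from no fold minimum, where gsc and foxa3 were added. Leaving out single libraries gave 6 or 7: it added gsc for protein against mRNA, and it lost ctslb ENSDARG00000074306, there and in the labelled reporter libraries against protein (without either of those libraries or Cas13d protein replicate 1). For protein against mRNA that row was also lost with a pseudocount of 0.1, with no filter and with only the 2 groups compared. With nanog guides against Cas13d mRNA foxa2 ranged from 1.80 to 2.41 over libraries left out. Among rows with an unadjusted p under 0.05 as reported, no fold change reversed; the others were not followed over the alternatives one by one.

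The numbers of all genes called, against which the rows are read, moved more. They ranged over the alternatives, then over single libraries left out, from 458 to 1180 and from 255 to 1047 for nanog guides (621 reported, 255 without Cas13d mRNA replicate 2 and 1047 without nanog-guide replicate 2), and from 221 to 2098 and 45 to 1256 for rfp guides (913; 45 without Cas13d mRNA replicate 2). They were 418 to 870 and 384 to 1328 for nanog against rfp guides (585), 12 to 237 and 5 to 34 for the reporter (128), 2 to 10 for dnd guides (4), 0 to 7 for Cas13d mRNA against uninjected (1) and 0 to 709 for szrd1 guides with mRNA (136, with 0 from only the groups compared). With protein they were 312 to 1804 for szrd1 guides (431), 47 to 192 and 13 to 25 for dnd1 guides (60), 1987 to 8288 against mRNA (3228), 1629 to 7447 and 140 to 1830 for the labelled reporter libraries against protein and mRNA (2583 and 241), and 31 to 254 for the szrd1 difference (153). The cause was not tested. The share of calls that were higher moved from 36.0% to 53.3% for rfp guides on rescaling, and with median-of-ratios scaling from 76.6% to 63.2% for the reporter and from 58.1% to 45.2% for szrd1 guides with mRNA.

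The labels do not say that replicate numbers pair libraries, and deviations of same-numbered libraries correlated between −0.282 and 0.235. With the replicate block the number of rows called was as reported in every comparison, for example 7 for Cas13d protein against mRNA, and the genes called were 630 with nanog guides. TPM values give no depth, so the precision of the low shha and ctslb values cannot be stated.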
